A study of Homo sapiens with 6 samples.

Results

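Intestinal and colorectal cancer stem cell markers were examined in HCT116, a long-established line of human colorectal carcinoma cells, by setting a mutant line derived from it against the parental line. The members were given by name as 10 genes, PROM1, LGR5, ASCL2, OLFM4, SMOC2, CD44, ALCAM, LRIG1, BMI1 and MSI1, and every probe set annotated to exactly 1 gene symbol was used. Of these genes, 9 were measured, each by 1 probe set, among 18417 genes so named in the table. BMI1 was represented only by a probe set that also carries the readthrough gene COMMD3-BMI1, so no value is given for it. The mutant line, described only as having altered DNA methylation, had 3 arrays, and the parental line had 3 arrays. Which gene was mutated is not named in the labels, and they do not say whether the mutant arrays come from 1 clone or from separate cultures, so the mutation and other differences between the lines cannot be told apart. All cells were grown in McCoy's 5A medium with serum and antibiotics, and total RNA was measured on Affymetrix whole-transcript arrays.

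The epithelium of the intestine is renewed from stem cells at the crypt base, which are held in that state by WNT signals and R-spondins. LGR5 is the R-spondin receptor that marks these cells, ASCL2 is a transcription factor that keeps them in that state, and OLFM4 and SMOC2 encode secreted proteins that they release. LRIG1, BMI1 and MSI1 were described in intestinal progenitors as well, largely in mice, whereas PROM1 (CD133), CD44 and ALCAM (CD166) are surface proteins used to sort tumour-initiating cells from colorectal cancers.

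Values are log2 expression made by robust multi-array average (RMA), and differences are mutant minus parental on that scale. Array medians lay between 6.90 and 6.93 in the mutant line and between 6.88 and 6.93 in the parental line. The lower quartile of all probe sets lay between 4.99 and 5.04 on the 6 arrays, and near and below such values RMA compresses differences. Colon epithelium markers were bright, for example EPCAM, on the brighter of its 2 probe sets, with 12.33 ± 0.06 in mutant and 12.15 ± 0.03 in parental cells (SD, n = 3 each). The brush border gene VIL1, by contrast, had 5.76 ± 0.09 in mutant and 5.76 ± 0.07 in parental cells. The leukocyte marker PTPRC had 3.73 ± 0.06 in mutant and 3.72 ± 0.17 in parental cells.

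Of the 9 markers, PROM1, LRIG1 and CD44 were lower in the mutant line, MSI1 was higher, and 5 did not pass the test. The test was limma's moderated test with Benjamini-Hochberg adjustment over all 33297 probe sets, called at an adjusted p under 0.05. It called 18.5% of all probe sets and 25.6% of the 19460 probe sets with 1 symbol, of which 14.5% were higher and 11.2% lower. The markers called were 4 of 9, or 44.4%, and 1 gene alone is worth 11.1 percentage points here. MSI1 lost its call in 8 of 17 alternative settings, given below, and the markers were chosen with earlier results of these data known. The share is therefore not support for a change particular to the markers. The median difference of the 9 markers was -0.10, against 0.0038 for all probe sets with 1 symbol. At an unadjusted limma p under 0.05 there were 7452 of the 19460 probe sets with 1 symbol.

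**Figure D1:**
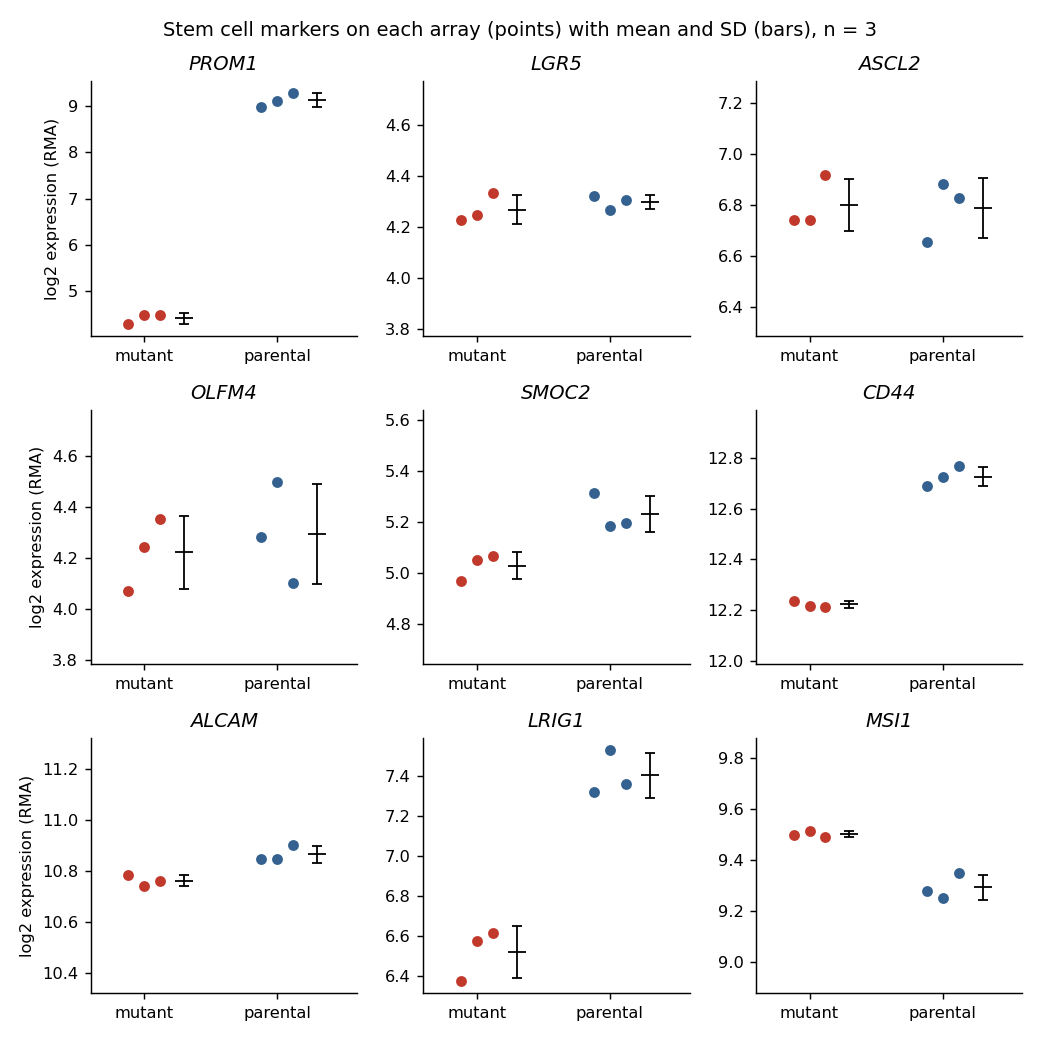
Log2 expression (RMA, vertical axes, a range of its own for each gene) of the 9 markers on the 3 mutant arrays (red) and the 3 parental arrays (blue), with mean and SD (n = 3 each) as black bars. PROM1, SMOC2, CD44, ALCAM and LRIG1 have each mutant array below each parental array, MSI1 has each mutant array above, and LGR5, ASCL2 and OLFM4 overlap.

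PROM1, a membrane glycoprotein of cell protrusions (probe set 8099476), differed most. Its log2 values were 4.28, 4.47 and 4.47 on the mutant arrays, against 8.99, 9.11 and 9.30 on the parental arrays. The lines were thus far apart, and the mutant values lay below the lower quartile of each array while the parental values lay well above the medians. The difference was -4.73 (95% interval -4.97 to -4.49, adjusted p = 6.51e-06) or a fitted 26.5-fold decrease, whose size is uncertain because RMA compresses signals as low as those of the mutant. In order of decrease PROM1 ranked 14 among the 19460 probe sets with 1 symbol. In bulk RNA, fewer PROM1-positive cells and less PROM1 RNA per cell cannot be told apart.

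LRIG1, a transmembrane protein that restrains ERBB receptors (probe set 8088642), had 6.37, 6.57 and 6.61 on the mutant arrays, against 7.32, 7.53 and 7.36 on the parental arrays. The highest mutant array stayed clearly below the lowest parental array. The difference was -0.88 (95% interval -1.10 to -0.66, adjusted p = 0.00157), a 1.84-fold decrease. In rank LRIG1 came at 375 from the lower end of the probe sets with 1 symbol.

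CD44, the hyaluronan receptor (probe set 7939341), was bright in both lines, with a mean over all arrays at percentile 97.3 of all probe sets. Its values were 12.24, 12.22 and 12.22 on the mutant arrays, against 12.69, 12.72 and 12.77 on the parental arrays. Arrays of the same line lay much closer to each other than to the other line. The difference of -0.50 (95% interval -0.62 to -0.39, adjusted p = 0.00105) is a 1.42-fold decrease. A single summarised value cannot separate the standard and variant isoforms of CD44.

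MSI1, an RNA-binding protein that represses translation (probe set 7967039), had 9.50, 9.51 and 9.49 on the mutant arrays, against 9.28, 9.25 and 9.35 on the parental arrays. All mutant arrays were higher, by little. The difference of 0.21 (95% interval 0.09 to 0.33, adjusted p = 0.0323) is a 1.15-fold increase. The call did not hold when mutant replicate 1, 2 or 3 or parental replicate 1 or 2 was left out (adjusted p = 0.0792 to 0.118), nor with array medians set equal (adjusted p = 0.0622).

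SMOC2, a calcium-binding matrix protein, was dim in both lines, with 4.97, 5.05 and 5.07 on the mutant arrays, against 5.31, 5.19 and 5.19 on the parental arrays. The lines did not overlap, but the difference of -0.20 (95% interval -0.35 to -0.06) missed the threshold over all probe sets (adjusted p = 0.0670). With only the probe sets with 1 symbol tested the adjusted p was 0.0307. ALCAM, an adhesion molecule, had 10.78, 10.74 and 10.76 on the mutant arrays, against 10.85, 10.85 and 10.90 on the parental arrays. All mutant arrays lay just below the parental ones, with a difference of -0.10 (95% interval -0.22 to 0.01, adjusted p = 0.203). In 6 of the 9 markers, or 66.7%, the lines did not overlap, against 45.6% of all probe sets with 1 symbol.

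The markers most closely tied to the crypt base did not pass the test. LGR5 had 4.23, 4.25 and 4.33 on the mutant arrays, against 4.32, 4.27 and 4.31 on the parental arrays, a difference of -0.03 (95% interval -0.16 to 0.10, adjusted p = 0.776). OLFM4 had 4.07, 4.24 and 4.36 on the mutant arrays, against 4.28, 4.50 and 4.10 on the parental arrays, a difference of -0.07 (95% interval -0.37 to 0.22, adjusted p = 0.769). Both genes overlapped between the lines and lay below the lower quartile of every array, so a change of either would be hard to see on these arrays.

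ASCL2 was brighter than that quartile, with 6.74, 6.74 and 6.92 on the mutant arrays, against 6.66, 6.89 and 6.83 on the parental arrays. Each of these values still lay below the median of its own array. The arrays were interleaved, and the difference was 0.01 (95% interval -0.20 to 0.21, adjusted p = 0.960). Under the alternatives the sign of the ASCL2 difference turned, between -0.06 and 0.06, and that of OLFM4 as well, between -0.17 and 0.03, with no call in any of them.

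**Figure D2:**
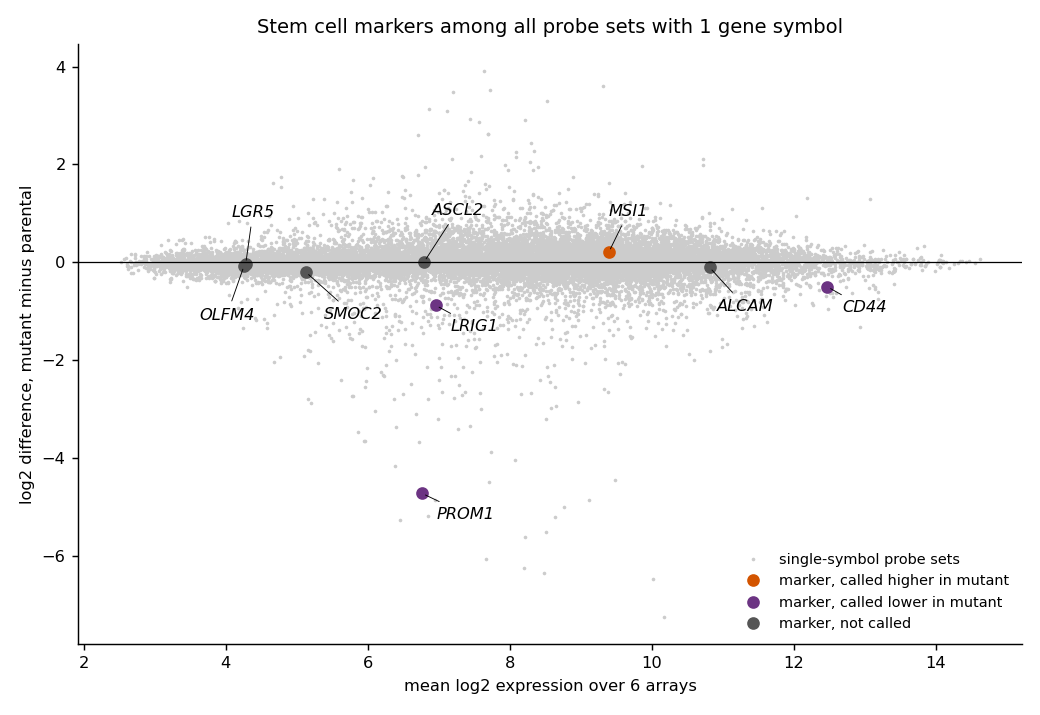
Log2 difference, mutant minus parental (vertical axis), against the mean log2 expression over the 6 arrays (horizontal axis) for 19460 probe sets with 1 gene symbol (grey), with the 9 markers named and coloured by call. PROM1 stands at -4.73 among the few genes below -4, LRIG1 at -0.88 and CD44 at -0.50 lie below the main cloud, and the other markers lie near 0.

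The changes that come nearest to that of PROM1 array by array, measured by the root mean square distance between deviations from each gene's own parental mean, belonged to ACSL5, LMAN1 and OR51B5. ACSL5, an acyl-CoA synthetase, differed by -4.85 at a distance of 0.131 log2 units over the 6 arrays. LMAN1, which carries cargo proteins from the endoplasmic reticulum, differed by -4.46 at a distance of 0.217, and the olfactory receptor gene OR51B5 by -4.85 at 0.222. The mutant means of OR51B5 (4.52) and PROM1 (4.41) lay below the lower quartile of the arrays, so their differences are uncertain in size and this order is not fixed. Their correlations with PROM1 over the 6 arrays, 0.999, 0.999 and 0.996, mostly restate the gap between the lines, which all these arrays share.

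Upstream sequence was looked up because the mutant line was described by its DNA methylation, which was not analysed here. RefSeq windows (build GRCh38.p14) were matched for 6 of the 9 markers. PROM1, OLFM4, SMOC2, CD44, ALCAM and LRIG1 were matched, and LGR5, ASCL2 and MSI1 were not. The 250 bases before the annotated start are printed for the 3 markers that were lower and for OLFM4, a marker with few CpG sites, each 5′ to 3′ on the gene's strand with CpG dinucleotides in capitals.
PROM1, chr4:16084024-16084273, minus strand: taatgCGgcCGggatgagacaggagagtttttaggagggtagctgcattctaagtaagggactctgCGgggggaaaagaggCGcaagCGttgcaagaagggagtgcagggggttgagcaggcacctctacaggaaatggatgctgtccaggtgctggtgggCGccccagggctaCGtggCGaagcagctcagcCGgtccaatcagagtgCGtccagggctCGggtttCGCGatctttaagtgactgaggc
LRIG1, chr3:66501122-66501371, minus strand: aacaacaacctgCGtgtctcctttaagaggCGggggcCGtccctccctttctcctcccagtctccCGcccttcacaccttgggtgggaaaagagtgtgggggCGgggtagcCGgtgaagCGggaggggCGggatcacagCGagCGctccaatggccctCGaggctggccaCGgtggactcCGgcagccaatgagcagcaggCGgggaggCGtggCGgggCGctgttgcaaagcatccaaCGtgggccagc
CD44, chr11:35138921-35139170, plus strand: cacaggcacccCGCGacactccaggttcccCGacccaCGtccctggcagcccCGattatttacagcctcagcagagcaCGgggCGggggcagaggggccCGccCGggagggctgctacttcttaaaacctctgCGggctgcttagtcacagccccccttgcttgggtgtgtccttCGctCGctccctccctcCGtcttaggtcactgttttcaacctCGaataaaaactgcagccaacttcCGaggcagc
OLFM4, chr13:53028563-53028812, plus strand: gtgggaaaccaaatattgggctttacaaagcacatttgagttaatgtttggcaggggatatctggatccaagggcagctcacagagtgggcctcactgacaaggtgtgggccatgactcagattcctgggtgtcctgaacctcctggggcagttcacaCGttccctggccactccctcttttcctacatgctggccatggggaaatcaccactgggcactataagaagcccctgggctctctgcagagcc

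The windows held 13 CpG sites in PROM1, 18 in LRIG1, 15 in CD44 and 1 in OLFM4. ALCAM had 20 and SMOC2 had 24. Over the 14237 genes of the array with such a window the median was 18, with quartiles of 7 and 26. PROM1, LRIG1 and CD44, the markers that were lower, thus lay between these quartiles, as did ALCAM and SMOC2, and OLFM4 alone lay below the lower one. The core letters of TCF and LEF factors, CTTTGA on either strand, were in 0 of the 6 windows and in 9.64% of all windows, which says nothing of sites elsewhere.

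**Figure D3:**
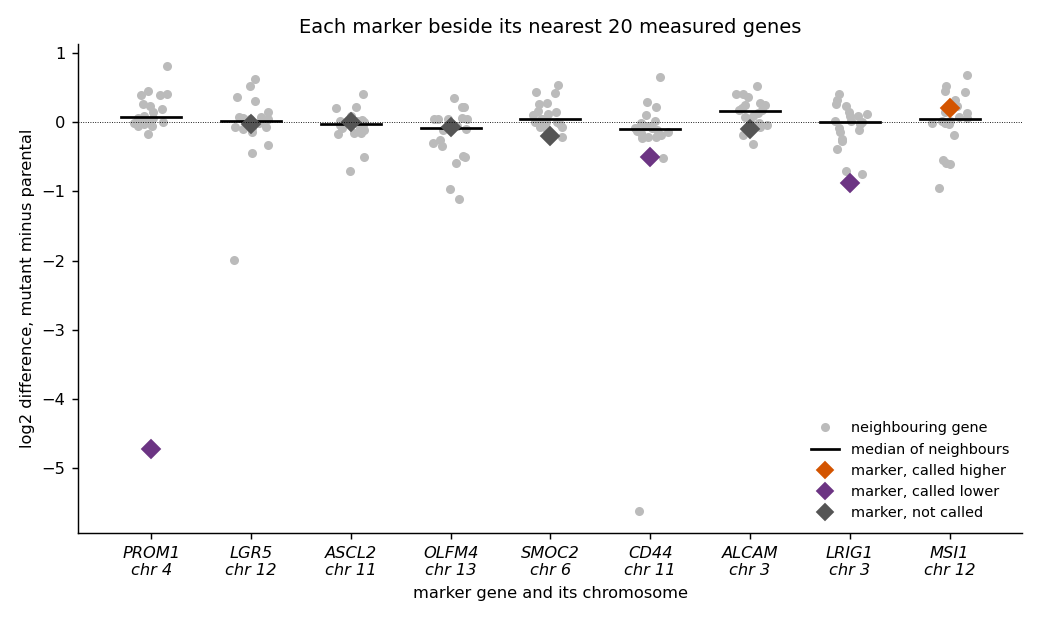
Log2 difference, mutant minus parental (vertical axis), of each marker (diamond) and of its 20 nearest measured genes in RefSeq gene order (grey points, median as a bar), with the chromosome below each name. PROM1 lies at -4.73 beside neighbours between -0.17 and 0.81, and the 20 neighbours of CD44 include 1 gene at -5.61.

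Called decreases were not seen around PROM1. Of the 20 nearest measured genes on chromosome 4, 5 were higher and 0 lower in the mutant line by limma, with 0 lower at an unadjusted p under 0.05, a median of 0.08 and a lowest value of -0.17. Around LRIG1 on chromosome 3 the median was 0.01, with 3 neighbours higher and 3 lower, and around CD44 on chromosome 11 it was -0.10, with 2 higher and 3 lower. The epithelial transcription factor gene EHF, which lies 3 measured genes from CD44, differed by -5.61 and was named after its value was seen. Around OLFM4 on chromosome 13, 7 of 20 neighbours were lower and 1 higher, with a median of -0.08, while OLFM4 itself is too dim to be set against them. For the other 5 markers the medians lay between -0.03 (ASCL2) and 0.15 (ALCAM). Over all probe sets with 1 symbol 14.5% were called higher and 11.2% lower.

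**Figure D4:**
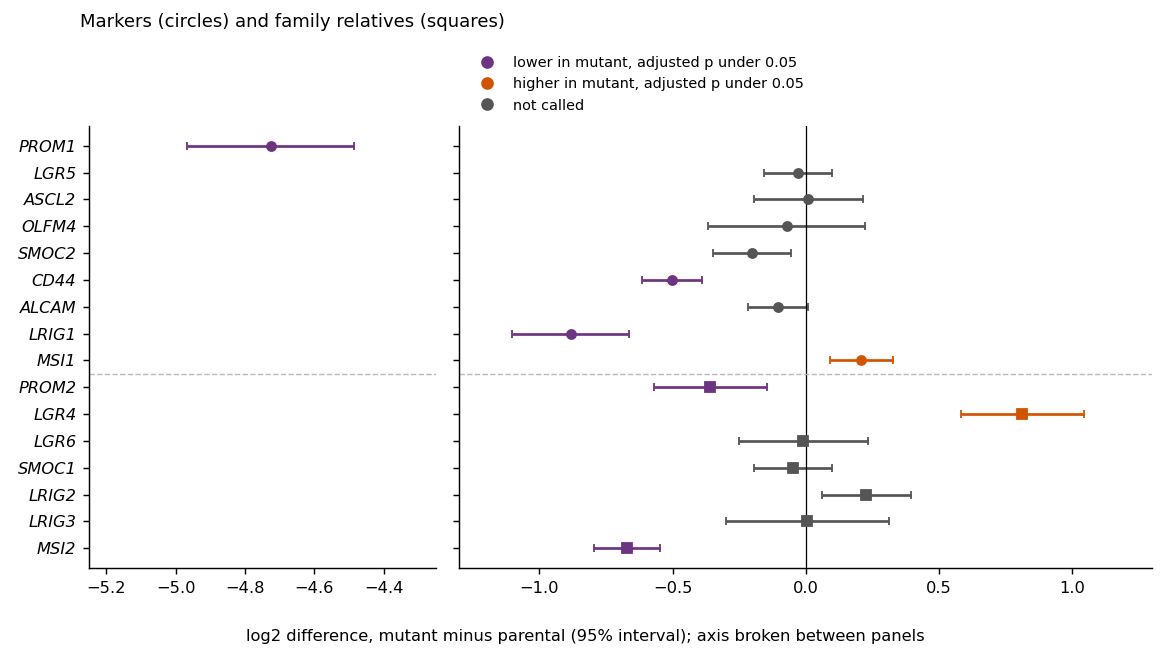
Log2 difference, mutant minus parental, with 95% intervals (horizontal axis, broken between the panels) for the 9 markers (circles) and 7 relatives from their gene families (squares), coloured by call. PROM1 stands alone at -4.73, LGR4 is higher at 0.81 beside LGR5 at -0.03, and MSI2 is lower at -0.67 beside MSI1 at 0.21.

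Relatives from the same gene families were called in some cases where the marker was not, or in the other direction; differences between a marker and its relative were not tested. LGR4, the R-spondin receptor of broader expression, had 9.10, 8.95 and 9.14 on the mutant arrays, against 8.11, 8.21 and 8.42 on the parental arrays, a difference of 0.81 (adjusted p = 0.00254). LGR6 differed by -0.01 (adjusted p = 0.968). MSI2, which like MSI1 binds RNA, had 9.74, 9.73 and 9.68 on the mutant arrays, against 10.34, 10.37 and 10.44 on the parental arrays. The difference of -0.67 (adjusted p = 0.000523) is opposite in sign to that of MSI1, whose call was lost in some settings.

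PROM2, the other prominin, differed by -0.36 (adjusted p = 0.0361), and this call did not hold without any single mutant array or without parental replicate 1 or 2 (adjusted p = 0.0513 to 0.108). Nor did the PROM2 call hold with an ordinary linear model, whose variance is not moderated (adjusted p = 0.0891). LRIG2 differed by 0.23 (adjusted p = 0.0729) and LRIG3 by 0.01 (adjusted p = 0.986), where LRIG1 fell. SMOC1 differed by -0.05 (adjusted p = 0.683). OLFM2, a secreted olfactomedin, rose by 1.17 (adjusted p = 0.000419) while OLFM4 stayed dim. Of the 17 relatives measured, 4 rose, 2 fell and 11 did not pass, with a median of -0.01. The 6 calls were 35.3% of the relatives, against 25.6% of all probe sets with 1 symbol. They dropped to 3 without mutant replicate 2, without mutant replicate 3 or without parental replicate 2. PCGF6, a Polycomb ring finger protein related to BMI1, differed by 0.26 (adjusted p = 0.0171) on its brighter probe set, which may detect a copy of the gene, and by 0.23 (adjusted p = 0.0483) on its other. Its call was lost without mutant replicate 2 or 3 or parental replicate 2 (adjusted p = 0.0576 to 0.0709).

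**Figure D5:**
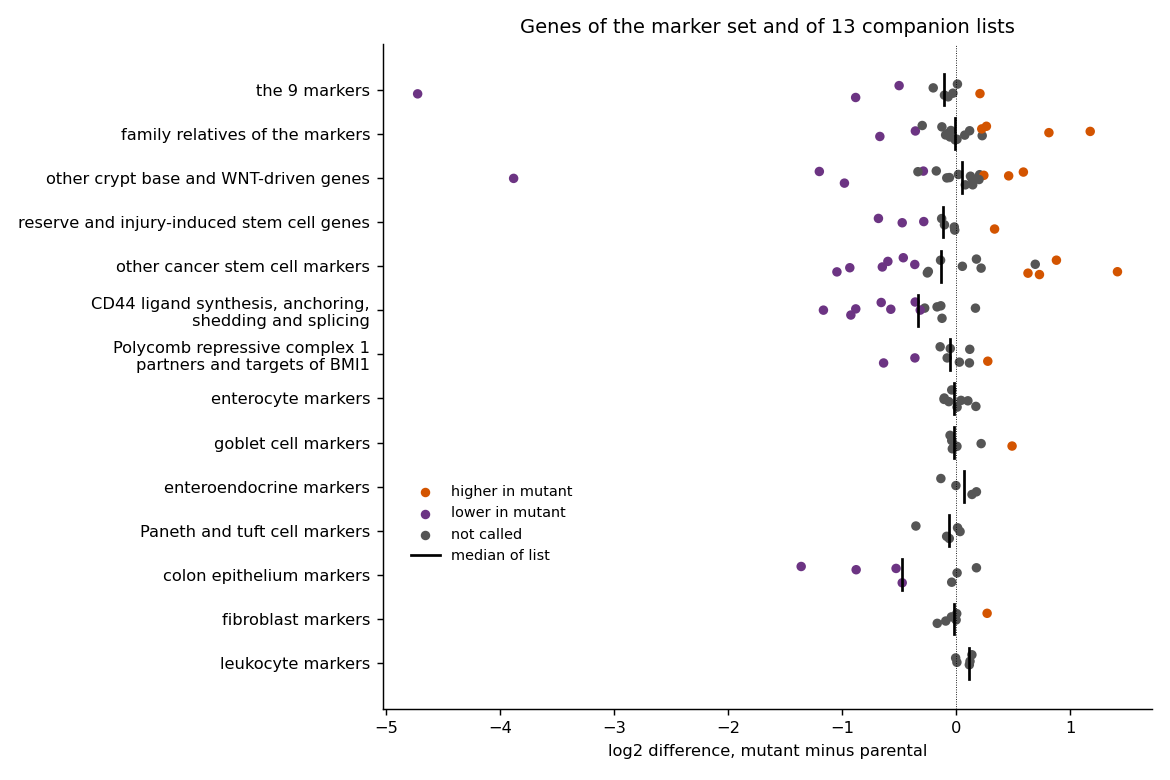
Log2 difference, mutant minus parental (horizontal axis), of the 9 markers (top row) and of the measured genes of 13 companion lists, 1 point a gene, coloured by call, with each list's median as a black bar. PROM1 at -4.73 and RNF43 at -3.88 stand apart, and the CD44 system has 7 genes lower and 0 higher. The listed markers of differentiated gut cells, some of them dim, gather near 0.

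Genes listed as acting on or beside CD44 were lower where they were called. Of 12 measured genes of its ligand synthesis, anchoring, shedding and splicing, 7 fell, 0 rose and 5 did not pass, with a median of -0.34. The share called was 58.3%, against 25.6% of all probe sets with 1 symbol, and 4 were called with a minimum fold of 1.2. HAS1, CD74, EZR and ESRP1 were not measured, and the splicing factor gene ESRP2 did not pass (adjusted p = 0.262). The list was chosen with earlier results of these data known, so its direction is not independent support for a change around CD44. At an unadjusted limma p under 0.05, 8 were lower and 1 higher, where 7452 of the 19460 probe sets with 1 symbol reached it. HAS3, a hyaluronan synthase that makes the ligand of CD44, had 7.99, 7.46 and 7.63 on the mutant arrays, against 8.89, 8.76 and 8.93 on the parental arrays (difference -1.17, adjusted p = 0.00267). MMP14, a membrane protease that can cleave CD44, differed by -0.93 (adjusted p = 0.000288). SPP1, which encodes the ligand osteopontin, differed by -0.88 (adjusted p = 0.0200), a call lost without mutant replicate 1 or any single parental array (adjusted p = 0.0543 to 0.0708). The SPP1 call was also lost with an ordinary linear model (adjusted p = 0.0776).

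Other crypt base and WNT-driven genes went both ways, with 3 of 18 higher, 4 lower and 11 not passing, and a median of 0.05. In all 38.9% were called, against 25.6% of all probe sets with 1 symbol. RNF43, a ligase that removes WNT receptors and is opposed by the LGR receptors, had 5.75, 5.80 and 5.84 on the mutant arrays, against 9.64, 9.70 and 9.70 on the parental arrays (difference -3.88, adjusted p = 7.88e-07). CDK6, a G1 kinase, differed by -1.20 (adjusted p = 0.000133) and SOX9, a transcription factor of crypt progenitors, by -0.98 (adjusted p = 0.000269). HES1, a target of Notch, was higher by 0.59 (adjusted p = 0.00155) and NOTCH1 by 0.46 (adjusted p = 0.00427). SLC12A2, an ion cotransporter, differed by 0.24 (adjusted p = 0.0153), a call lost without mutant replicate 2 or 3 or parental replicate 2 (adjusted p = 0.0514 to 0.0673).

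Other surface and functional markers of cancer stem cells went both ways, with 6 of 17 lower, 4 higher and 7 not passing, and a median of -0.14. In all 58.8% were called, against 25.6% of all probe sets with 1 symbol. The drug transporter gene ABCB1 differed by -1.05 (adjusted p = 0.00169), the tuft cell kinase gene DCLK1 by -0.93 (adjusted p = 0.00127) and the receptor gene MET by -0.65 (adjusted p = 0.00052). DCLK1 was dim, with 4.84 in mutant cells, below the lower quartile of the arrays, and 5.77 in parental cells. ABCB1 had 5.26 in mutant and 6.31 in parental cells, so the sizes of both decreases are uncertain. DPP4 (CD26), a surface peptidase, had 9.47, 9.32 and 9.40 on the mutant arrays, against 7.92, 8.08 and 7.97 on the parental arrays, higher by 1.41 (adjusted p = 0.00011). CD24, a gene with near-identical copies that can share probes, was higher by 0.88 (adjusted p = 0.00232) and the transcription factor gene KLF4 by 0.73 (adjusted p = 0.00183).

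Among 8 reserve and injury-induced stem cell genes 3 fell, 1 rose and 4 did not pass, with a median of -0.12. The share called was higher than the 25.6% of all probe sets with 1 symbol. With a minimum fold of 1.2 in the test, 1 of the 8 was called. PROCR, a surface receptor, differed by -0.68 (adjusted p = 0.000998), KRT19 by -0.47 (adjusted p = 0.00207) and ANXA1 by 0.34 (adjusted p = 0.00562). PHLDA1 differed by -0.29 (adjusted p = 0.0143), a call lost without mutant replicate 2 or parental replicate 2 (adjusted p = 0.0601 and 0.0603). Of 9 measured partners and targets of BMI1 in Polycomb repressive complex 1, 2 fell, 1 rose and 6 did not pass, with a median of -0.05. Here 33.3% were called, against the same 25.6%. PHC2 differed by -0.64 (adjusted p = 0.0042) and PHC1 by -0.36 (adjusted p = 0.00599), both polyhomeotic subunits. CDKN2A, a cell cycle inhibitor gene that BMI1 represses, differed by 0.28 (adjusted p = 0.0202), a call lost on leaving out any array but parental replicate 2 (adjusted p = 0.0522 to 0.0732).

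Differentiation markers of the gut mostly did not pass the test. Of the enterocyte markers 0 of 8 changed, of the enteroendocrine markers 0 of 4, and of the Paneth and tuft cell markers 0 of 5 by limma, and likewise 0, 0 and 0 with an ordinary linear model. With array weights, or with only the probe sets with 1 symbol tested, 1 Paneth or tuft cell marker was called. The tuft cell gene DCLK1 was counted with the other cancer stem cell markers instead, and it was lower (-0.93, adjusted p = 0.00127). At an unadjusted limma p under 0.05 there were 0 enterocyte, 1 enteroendocrine (higher) and 1 Paneth or tuft cell (lower) markers. Goblet cell markers had 1 of 7 higher, FCGBP with 0.49 (adjusted p = 0.00242), and 0 lower, also at an unadjusted limma p under 0.05. Their share called was 14.3%, against 25.6% of all probe sets with 1 symbol. The medians of these lists lay between -0.06 and 0.07. Some of these genes lay below the lower quartile of the arrays, where a change would be hard to see. Among them were SI (3.52 in mutant and 3.63 in parental cells), CLCA1 (3.42 and 3.46) and LYZ (3.79 and 4.14). INSM1 (8.09 in both lines) and ALPI (7.23 in mutant and 7.27 in parental cells) were brighter, but the mean level of each of these lists lay below the array medians. The highest, that of the enteroendocrine markers, was 6.28 to 6.43 on the mutant arrays and 6.27 to 6.39 on the parental arrays.

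Some epithelial genes were lower along with PROM1, LRIG1 and CD44. Of 7 colon epithelium markers 4 fell, 0 rose and 3 did not pass, EPCAM (0.18), VIL1 (0.01) and CDX2 (-0.04). The share called was 57.1%, against 25.6% of all probe sets with 1 symbol. EPCAM alone, on the brighter of its 2 probe sets, was higher at an unadjusted limma p under 0.05. The median of the list was -0.47, the value of KRT19, which the reserve list also holds. CDH1, which encodes E-cadherin, differed by -1.36 (adjusted p = 0.000204), KRT18, with many pseudogene copies, by -0.88 (adjusted p = 0.000377; -1.07 on its other probe set) and KRT8 by -0.53 (adjusted p = 0.00171). Averaged over the 7 markers, log2 levels ran from 10.25 to 10.32 on the mutant arrays and from 10.72 to 10.74 on the parental arrays. Their part in the results on the stem cell markers was not tested.

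Among markers of other cell types, the defining leukocyte gene PTPRC and the fibroblast genes DCN (3.49 in mutant and 3.49 in parental cells) and LUM (3.07 in mutant and 3.07 in parental cells) lay below the lower quartile of the arrays. CD68, with 9.33 in mutant and 9.19 in parental cells, and COL1A1, with 8.13 in mutant and 8.30 in parental cells, lay above the array medians and did not pass the test. Leukocyte markers had 0 of 5 changed by limma, 0 with an ordinary linear model and 0 at an unadjusted p under 0.05, with mean levels of 6.06 to 6.09 on the mutant arrays and 5.98 to 6.04 on the parental arrays. Fibroblast markers had 1 of 6 higher and 0 lower by limma, with 1 lower at an unadjusted p under 0.05, and mean levels of 5.67 to 5.74 on the mutant arrays and 5.69 to 5.75 on the parental arrays. The fibroblast marker called was PDGFRB, with 0.27 (adjusted p = 0.0322), lost on leaving out any array but parental replicate 2 (adjusted p = 0.0595 to 0.0968). The PDGFRB call was also lost with an ordinary linear model (adjusted p = 0.0563). This gene makes 16.7% of the fibroblast list, against 25.6% called among all probe sets with 1 symbol.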

How the data were processed

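The deposited table holds log2 values for 33297 probe sets on 6 arrays, for which the authors used RMA together with Partek according to the labels; per the submitters' processing notes no versions are recorded. RMA makes the distributions of all arrays alike, so a difference in total RNA per cell is removed. Values were used as deposited. The platform annotation gives 19460 probe sets 1 gene symbol, 1754 several and 12083 none. A gene outside the marker set with several probe sets was represented by the brightest.

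Mutant minus parental differences were tested with limma 3.58.1 (two-sided lmFit and eBayes, R 4.3.3), with the line as the only term. Benjamini-Hochberg adjustment ran over the whole table, and intervals are 95% from the moderated variance (4 residual and 2.16 prior degrees of freedom). Because no label states that cultures were separate, the p-values reflect the spread of these arrays alone, possibly technical. In a simulation on the means and spread of 33297 probe sets, 80 were changed 1.5-fold, 80 2-fold and 40 4-fold. Of these changes 56.2%, 81.2% and 97.5% were recovered, with 6 unchanged probe sets called. Far fewer probe sets were changed there than the 6166 called in the data. The adjustment was therefore stricter, and these rates are not those of the data.

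The markers and the 13 companion lists (137 genes, 120 measured) were chosen with earlier results of these data known. The 25.6% called among probe sets with 1 symbol, set beside the lists, covers dim and bright probe sets alike. Several lists were bright, such as the other cancer stem cell markers, with mean levels of 8.14 to 8.18 on the mutant arrays. The share called among bright probe sets alone was not computed. Named are the markers, 7 relatives, up to 3 called genes per list and direction with the largest change, and the 3 genes most like any marker called with a difference of at least 1. Gene order came from RefSeq (GRCh38.p14), in which 19426 probe sets with 1 symbol were found, and upstream windows came from the same release. Depth does not apply to arrays; their number limits the precision.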

Additional observations from a re-analysis of the deposited data

How the results depend on the processing

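Of the 4 markers called, 0 reversed direction under 17 alternatives. These covered normalization, filters on dim probe sets, the variance model, array weights, a replicate block, single arrays left out, the features tested and a minimum fold. The filters removed dim markers, so LGR5 and OLFM4 were tested in 15 alternatives and SMOC2 in 16. PROM1, LRIG1 and CD44 kept their calls in all 17, with differences of -4.80 to -4.64, -0.93 to -0.81 and -0.52 to -0.47. MSI1 lost its call in 8, and SMOC2 gained one in 2 (adjusted p = 0.0402 with a mean log2 of at least 5 in a group, 0.0307 with single-symbol probe sets only), where fewer probe sets were tested. The number of markers called ran from 3 to 5, and from 3 to 4 when each array was left out. Of the 39 other named genes, 12 lost a call in at least 1 alternative and LRIG2 gained one.

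With a minimum fold of 1.2 in the test the genes called dropped to 4 of the CD44 system (7 without it), 4 of the other crypt base genes (7), 3 of the relatives (6), 1 of the reserve genes (4), 1 of the Polycomb genes (3), and 0 of the goblet cell and fibroblast markers (1 each). The fibroblast count was otherwise 0 to 2.

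The number of probe sets called, 6166, dropped to 1743 with a minimum fold of 1.2 in the test, which is stricter by construction. It was 4037 to 4644 with 1 array left out, the lowest without mutant replicate 2 and 4109 without parental replicate 2. No pairing by replicate number was visible. Same-numbered arrays correlated at 0.0428, -0.0135 and 0.0027 in their deviations from the group means, and not each array correlated best with its own number. With so few arrays this cannot exclude that same-numbered arrays were handled together. With the replicate block 4365 probe sets and 3 markers were called. Signals near the background limit what can be said of LGR5, OLFM4 and SMOC2, and of the size of the PROM1 decrease.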
